A study of Rattus norvegicus with 28 samples.

Results

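The genes described here are 86 developmental transcription factors of the Hox, Sox, Pax, Lhx, Nkx, Olig, Neurod, Neurog, Ascl and Isl families. They were chosen by name from the array annotation, whatever their values, and are 86 of 35469 gene names measured (98 of 41012 probes, 12 genes with several probes and the others with 1). By family they were 26 Hox, 16 Sox, 12 Nkx, 10 Lhx and Isl, 7 Pax, 7 Neurod and Neurog, 5 Ascl and 3 Olig genes. Members of these families that the annotation does not list by name were not analysed here.

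Total RNA of rat spinal cord was measured on 28 single-dye microarrays, 4 animals in each of 7 groups of adult female Sprague Dawley rats. T0 animals had no contusion and are called sham in the labels and uninjured in the paper. T1, T2, T4 and T8 animals were taken 1, 2, 4 and 8 weeks after a 250 kdyn contusion at thoracic level T8. T1_NPC animals received neural progenitor cells (NPC) right after the contusion and were taken at 1 week, and T2_NPC animals received them 1 week after it and were taken at 2 weeks. The NPC had been grown from cords of adult rats taken 1 week after a contusion, and were injected into the cord on both sides of the lesion. The methods state that injured control animals were given an equal volume of medium without cells, but do not say whether these were the T1 and T2 animals of the arrays. Tacrolimus (FK-506), which suppresses T cells, was given at 1 mg/kg from the day before transplantation to the end point, and the labels of every group list it with the care after surgery. Each sample was 1.5 cm of cord, labelled T6-T10 in every group but T2_NPC, where the label is T7-T10.

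Hox genes lie in 4 clusters and are numbered by their order along each cluster, which follows the head-to-tail order of their expression. Low paralog numbers mark hindbrain and neck levels, the middle numbers the thoracic cord and the high numbers the lumbosacral levels, and adult cord cells keep part of this code. Pax, Nkx, Olig, Lhx and Isl factors divide the embryonic cord into progenitor domains and the neuron classes that arise from them, while Neurod, Neurog and Ascl are basic helix-loop-helix factors that drive neuronal differentiation. Sox factors bind DNA through a high-mobility-group box. They maintain progenitors (group B1, here Sox2) or act in young neurons and in repair (group C). Others specify astrocytes, oligodendrocytes and Schwann cells (group E) or vessels (group F). Sox14 and Sox21 are of group B2.

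Levels are given on the log2 scale of the value table that the authors deposited, on which 1 unit is a 2-fold change, as quantile normalized between arrays. Differences come from limma, fitted to all gene names at once, and a gene is said to have passed, risen or fallen where its Benjamini-Hochberg adjusted p lay under 0.05. Levels of different genes are not compared, since they come from different probes. On an array, 74.5% to 82.7% of spots were well above background and no spot was saturated. Of the 86 genes, 53 exceeded background clearly on all 28 arrays (the flag well above background of the scanner), and 8 did so on no array (Hoxb13, Hoxc12, Hoxc13, Hoxd13, Lhx6, Neurog1, Nkx2-6 and Sox30).

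The deposited scanner outputs and the value table disagreed about the sample of 16 of the 28 arrays: the values of these 16 columns have the rank order of an output deposited under another group. The columns of the value table carry their own sample names and are used here. With the scanner outputs under the samples they were deposited with, 0 of the 86 genes passed with limma in any of the 11 comparisons (5, 5, 16 and 8 at an unadjusted p under 0.05 at T1, T2, T4 and T8). An unadjusted p under 0.05 is reached by about 1 in 20 genes through chance alone. With the 12 undisputed arrays alone, 18, 16, 11 and 24 genes passed at these times, but T1 and T4 then had 1 array each, which is assumed to vary like those of the other groups. The shares of all gene names that passed in those fits are not reported here. Every result below rests on the sample names of the value table. The time-course arrays were scanned in 2 sessions, each of which held arrays of all 5 groups. With session as a block, 93 of 93 time-course calls of the genes named by the rule stayed past the threshold, 55 of 93 did so within session 1 (8 arrays) and 78 of 93 within session 2 (12 arrays), and none changed sign. Session 1 held 1 array of T1 and 1 of T4, so its values at these times rest on a lone array, with the spread taken from the other groups.

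After the contusion, more of these genes fell than rose. At T1, 32 of 86 fell (37.2%), while 25.1% of all gene names fell, and 4 rose (4.65%), while 19.1% of all gene names rose. At T2, 29 fell (33.7%; 22.2% of all gene names) and 4 rose (17.7% of all gene names). At T4, 28 fell (32.6%; 21% of all gene names) and 6 rose (17.5% of all gene names), and at T8 24 fell (27.9%; 21.5% of all gene names) and 6 rose (18.2% of all gene names). The median log2 difference of the 86 genes was -0.35, -0.35, -0.20 and -0.22 at T1, T2, T4 and T8, beside -0.10, -0.06, -0.06 and -0.04 for all gene names. At all 4 times 19 genes were lower (15.9% of all gene names were) and 2 were higher, Sox4 and Lhx8 (12.3% of all gene names were). The 19 were Hoxa4, Hoxa10, Hoxb6, Hoxb8, Hoxb9, Hoxc10, Hoxd1, Hoxd9, Isl1, Lhx1, Neurod1, Neurod2, Neurod6, Nkx6-2, Olig1, Olig3, Pax8, Sox12 and Sox13. A further 16 fell at 1 to 3 times (among them Ascl3, Hoxa5, Hoxa9, Hoxb7, Hoxc4, Hoxc6, Hoxd3, Isl2, Lhx2, Lhx4, Lhx5, Nkx2-5, Pax4, Sox9 and Sox10), and 7 rose at 1 to 3 times (Hoxa2, Lhx3, Pax6, Sox2, Sox6, Sox7 and Sox11). Nkx6-1 fell at T1 and rose at T8, and 41 passed at no time. These 4 comparisons share the T0 arrays. Over all comparisons the 86 genes gave 166 calls, of which 52 were lost without some 1 array. Where the text below describes such a difference for a gene, the loss is given with it. Other lost calls are only counted. Among them are Hoxa5 at T4 (limma, adjusted p = 0.069), Lhx4 at T4 (0.061 to 0.11) and Lhx5 at T1 (0.071 to 0.10). The call of Nkx2-5 at T8 was lost without any of 18 arrays (0.051 to 0.22). Among the 19, Sox13 fell at T1, T4 and T8 only with T0 replicate 1 (6.97, the other T0 arrays 5.33 to 5.67) in the fit, and its T1 and T4 calls were lost without other arrays too (adjusted p 0.060 to 0.25).

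**Figure D1:**
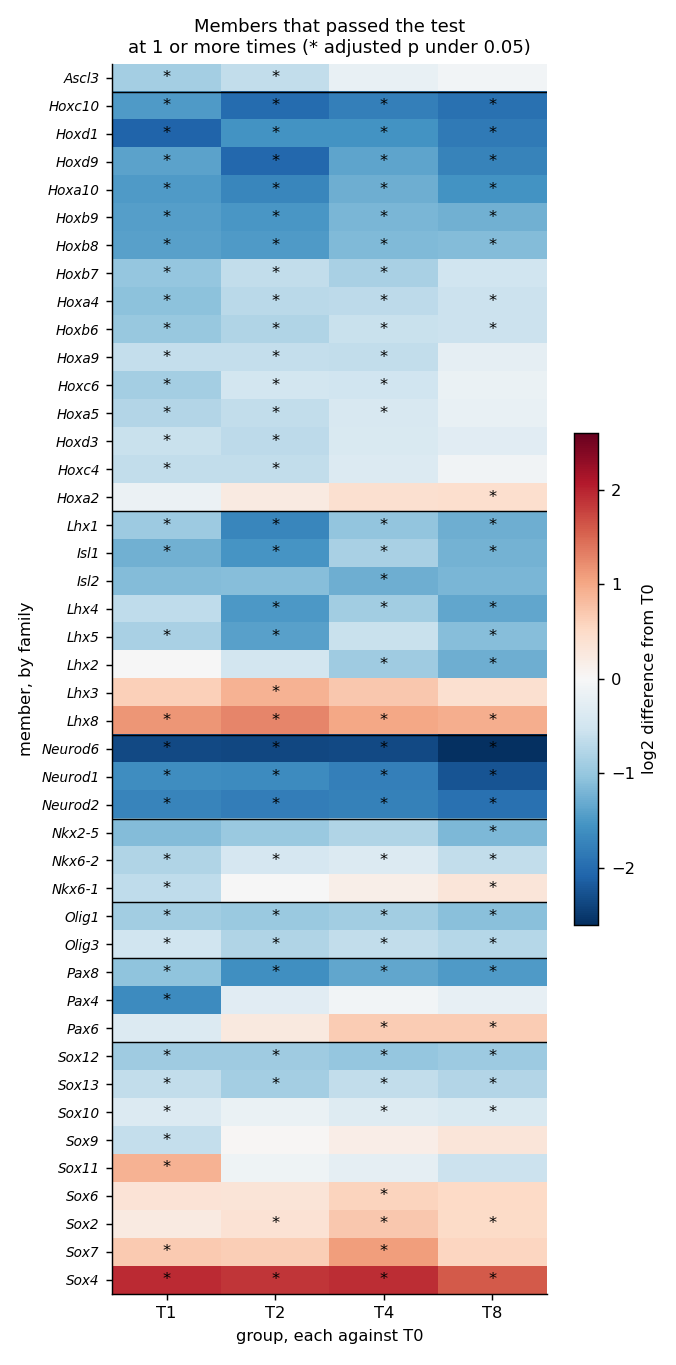
Log2 difference from T0 (colour, blue lower and red higher) at T1, T2, T4 and T8 for genes that passed at 1 or more times, grouped by family, with * for an adjusted p under 0.05. Neurod6 is the deepest blue at every time (-2.35 to -2.63) and Sox4 the deepest red (1.60 to 1.93).

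Neurod6 had the largest fall of the set at each of the 4 times. Neurod6, Neurod2 and Neurod1 encode helix-loop-helix factors of differentiated neurons, the first 2 best known from the forebrain. The region before the transcription start of Neurod6 and Neurod2 is shown because these genes fell together and because their family binds E-boxes. The letters are the 250 bases before the RefSeq start, 5′ to 3′ on the gene's strand, and capitals mark the E-box letters CAGATG or CATCTG or CAGCTG (each read on both strands). Neurod6 lies on the minus strand at chr4:86180156-86180405 and Neurod2 on the minus strand at chr10:83824278-83824527 of build GRCr8, which is not the build of the array annotation.
Neurod6: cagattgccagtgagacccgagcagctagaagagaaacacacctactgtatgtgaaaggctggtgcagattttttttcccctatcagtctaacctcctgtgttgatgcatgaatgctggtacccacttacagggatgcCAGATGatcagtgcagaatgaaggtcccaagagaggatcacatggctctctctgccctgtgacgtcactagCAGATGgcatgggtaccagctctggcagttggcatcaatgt
Neurod2: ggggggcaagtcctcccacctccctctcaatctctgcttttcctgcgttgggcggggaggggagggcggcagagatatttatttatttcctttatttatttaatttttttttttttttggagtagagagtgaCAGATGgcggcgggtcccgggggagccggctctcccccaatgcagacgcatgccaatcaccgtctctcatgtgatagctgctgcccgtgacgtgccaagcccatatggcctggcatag
The Neurod6 stretch holds CAGATG at 2 places and the Neurod2 stretch at 1. Of 33469 RefSeq promoters of this length, 24.3% hold 1 of these E-boxes, as do 6 of the 58 promoters found for the set (10.3%). A Sox motif (ACAATG or ACAAAG, or their complements CATTGT and CTTTGT) stands in 8 of the 58 (13.8%) and in 25.3% of all, and the homeodomain letters TAATTA in 2 of the 58 (3.45%) and in 4.86% of all. Neither of the other 2 motifs is in the Neurod6 or the Neurod2 stretch.

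Neurod6 lay at 8.14, 7.67, 8.07 and 8.12 in the 4 T0 arrays and at 5.91, 5.44, 6.04 and 5.2 at T1. At T8 it lay at 5.36, 5.17, 5.46 and 5.52. No injured array reached the lowest T0 array at any time. On the log2 scale the fall was 2.35 ± 0.29 (SE, n = 4), 2.37, 2.35 and 2.63 at T1, T2, T4 and T8, a 5.10-fold to 6.17-fold lower level (limma, adjusted p 1.2e-07 to 7.2e-07). Neurod2 lay between 8.57 and 9.09 at T0 and between 6.27 and 7.59 on all T1, T2, T4 and T8 arrays. It fell by 1.71, 1.80, 1.75 and 1.93 at T1, T2, T4 and T8 (SE 0.30 each), again with no overlap. Neurod1 was dim: it cleared background on all 4 T0 arrays (4.57 to 5.47), on 2 arrays at T1 and at T4 and on none at T2 and T8. Its T0 level was at least 2.40-fold that at T2 and at least 2.93-fold that at T8 (limma, adjusted p = 0.026 and 0.0029). The call at T2 was lost without T0 replicate 1, 3 or 4 or T2 replicate 1 (adjusted p 0.055 to 0.091), the call at T1 without T0 replicate 1, 3 or 4 or T1 replicate 2 or 4 (0.052 to 0.14), and that at T4 without T4 replicate 1 (0.099). Neurog2 and Neurog3, which start the neuronal programme, differed by 0.15 or less from T0 and passed at no time, and Neurod4 and Neurog1 were above background on no array of the time course.

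All 8 neuronal markers of the list fixed for this purpose, such as Snap25 and the neurofilament genes, fell too, by a median of 1.67 at T1 and 1.69 at T8. Their mean level lay between 14.19 and 14.51 in T0, 12.22 and 13.09 in T1, 11.86 and 13.11 in T2, 12.27 and 13.04 in T4 and 12.37 and 12.76 in T8, and each was measured above background in every group. All 4 markers of inhibitory interneurons fell, by medians of 1.90 and 2.16. Of 3 measured markers of cholinergic motor neurons, 2, 3, 3 and 2 fell at T1, T2, T4 and T8 (median -1.29 at T1). Of 3 markers of excitatory neurons, 1, 2, 1 and 2 fell at these times (median -0.68 at T1, highest 0.08). In whole tissue, fewer cells of a type and less RNA per cell cannot be told apart, and the part of neuron content in any fall reported here was not tested.

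Isl1 and Pax8 fell at all 4 times, while Pax2, Pax3 and Pax7 passed at none. Isl1, which marks motor neurons and dorsal interneurons, lay at 6.42, 6.28, 6.25 and 6.71 in T0 and at 5.80, 4.77, 5.27 and 4.81 in T1. It fell by 1.25 ± 0.32, 1.53, 0.84 and 1.23 at T1, T2, T4 and T8 (SE, n = 4). T4 replicate 4 (6.26) was the only injured array within the T0 range, and the call at T4 (adjusted p = 0.043) was lost without any 1 of the T0 arrays or T4 replicates 1, 2 and 3 (0.055 to 0.11). Pax8, an inhibitory interneuron factor with Pax2, lay at 7.00 to 7.21 in T0 and at 4.99 to 6.37 on all injured arrays of the time course. It fell by 1.05 ± 0.25 at T1 and by 1.59, 1.36 and 1.48 at T2, T4 and T8. Pax2 did not follow it: its level lay between 8.14 and 8.87 in T0, and its differences of 0.04, 0.17, 0.31 and 0.30 did not pass (limma, adjusted p 0.28 to 0.92).

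The LIM-homeobox genes moved in both directions, as did all gene names. Of 10 Lhx and Isl genes, 3, 4, 5 and 5 fell at T1, T2, T4 and T8, beside 25.1%, 22.2%, 21% and 21.5% of all gene names. At these times 1, 2, 1 and 1 rose, beside 19.1%, 17.7%, 17.5% and 18.2% of all gene names. Lhx1 (dorsal and ventral interneurons) lay at 5.38 to 6.49 in T0 and at 3.74 to 4.52 in T2, where it fell by 1.70 ± 0.31 with no overlap. It was well above background on only 2 of the 4 T2 arrays and on 3 of the 4 T8 arrays. It was also lower at T1 (-0.94), T4 (-1.02) and T8 (-1.27), with overlapping arrays, and the T1 call was lost without T0 replicate 2 or 4 or T1 replicate 1 (adjusted p 0.050 to 0.062). Lhx5, its close relative, was at least 2.20-fold lower at T2, where no array was well above background. Lhx4, of motor neurons and V2 interneurons, was at least 1.82-fold lower at T2 on the same ground. Lhx2 changed late: it lay at 4.37 to 5.17 in T0 and 4.65 to 5.05 in T1, and then at 3.65 to 4.28 in T4 and 3.22 to 3.81 in T8. Its fall was 0.92 at T4 and 1.27 ± 0.30 at T8, the call at T4 was lost without T4 replicate 1 (adjusted p = 0.053), and only 1 of the 4 T8 arrays was well above background. Lhx8, a factor of forebrain cholinergic neurons, was higher at all 4 times. It was well above background on 1 of 4 T0 arrays (3.55 to 4.51) and on every T1, T2, T4 and T8 array (4.33 to 5.51), and it rose by 1.15 ± 0.31, 1.26, 1.00 and 0.94 at T1, T2, T4 and T8. T1 replicate 3 and T8 replicate 2 fell within the T0 range, and the T8 call was lost without T0 replicate 1 or 3 or T8 replicate 3 (adjusted p 0.061 to 0.070). Lhx3, the partner of Isl1 in motor neurons, rose by 0.91 ± 0.32 at T2, a call that was lost without T0 replicate 1 or 3 or T2 replicate 4 (0.065 to 0.11).

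**Figure D2:**
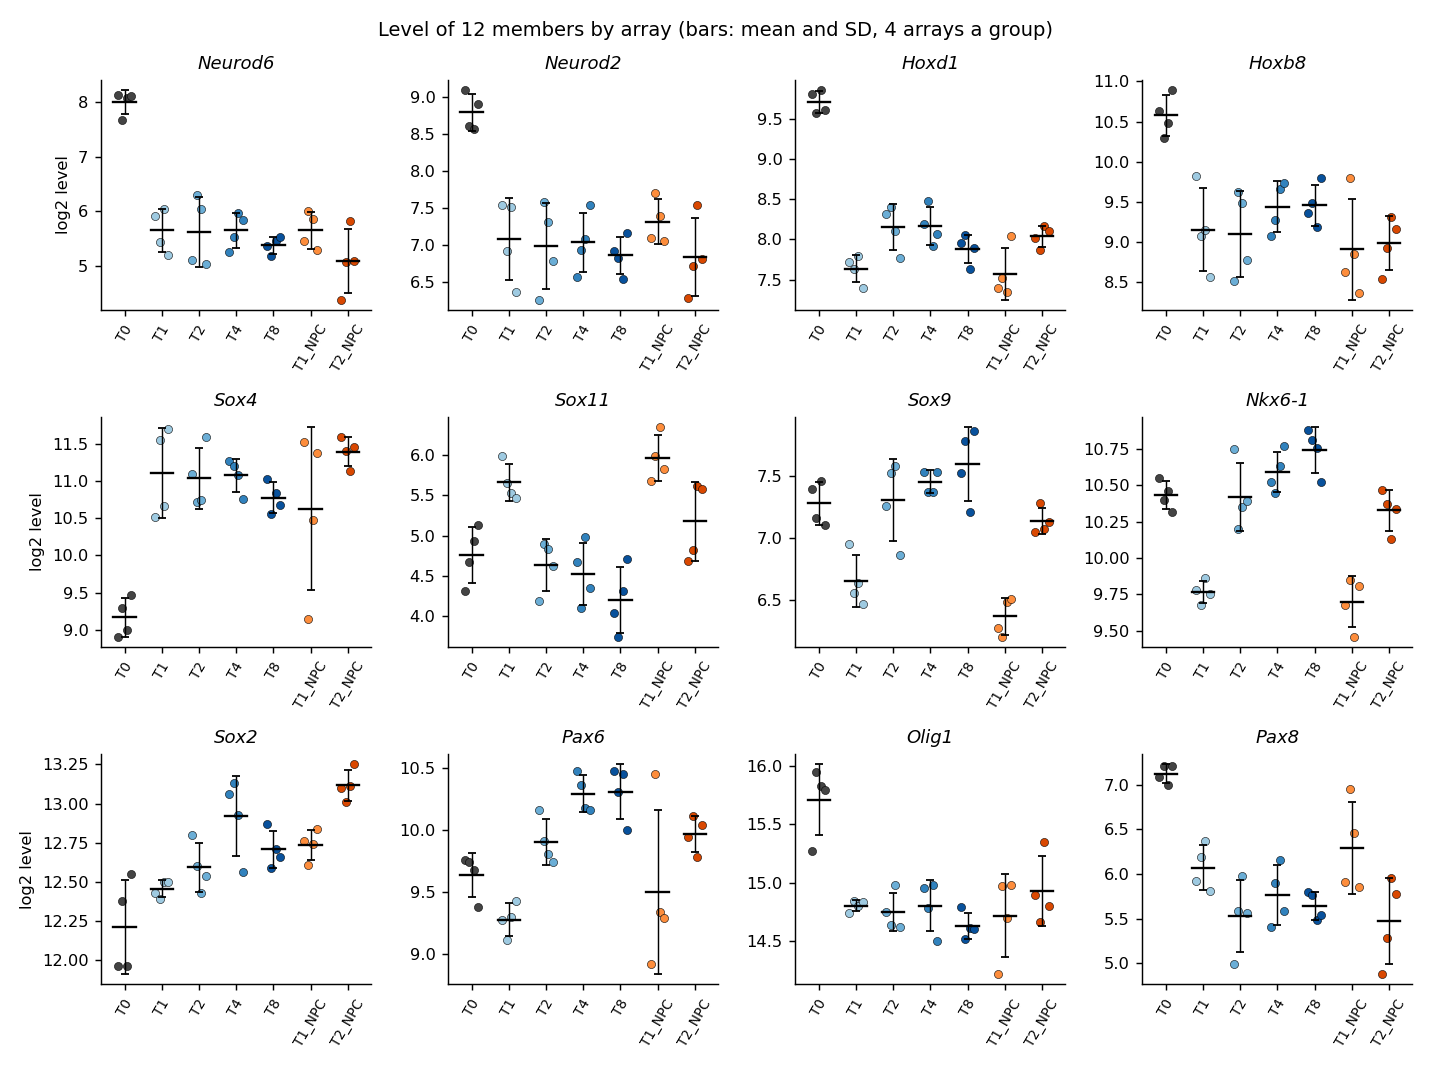
Log2 level of 12 genes in each of the 28 arrays, with the mean and SD of the 4 arrays of a group (each panel has its own axis, which does not start at 0). Neurod6, Neurod2, Hoxd1 and Olig1 lie below every T0 array in all injured groups of the time course, Sox4 lies above them, and Sox9, Nkx6-1 and Sox11 lie clear of the T0 arrays at T1 and overlap them at T2, T4 and T8.

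Of 26 Hox genes, 14, 14, 12 and 8 fell at T1, T2, T4 and T8, beside 25.1%, 22.2%, 21% and 21.5% of all gene names, and 1 rose, at T8. Their median log2 difference was -0.62, -0.65, -0.41 and -0.34, beside -0.10, -0.06, -0.06 and -0.04 for all gene names. Taken by position along the clusters, 7 of the 8 genes of paralog groups 6 to 9, the thoracic numbers, fell at T1, T2 and T4 and 4 of 8 at T8, with medians of -1.0, -0.72, -0.74 and -0.53. Of the 5 genes of groups 4 and 5, 3, 3, 2 and 1 fell. Of the 6 genes of groups 1 to 3, 2, 2, 1 and 1 fell. Of the 7 genes of groups 10 to 13, Hoxa10 and Hoxc10 fell at every time and the other 5 passed at none. Those 5 (Hoxb13, Hoxc12, Hoxc13, Hoxd10 and Hoxd13) were well above background on no array but for Hoxd10 on 1, so these numbers could not be read from them, and the paralog groups were not tested against each other. The gene listed as Hoxa9 carries an accession that RefSeq now gives to Hoxa7, and was counted as number 7.

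**Figure D3:**
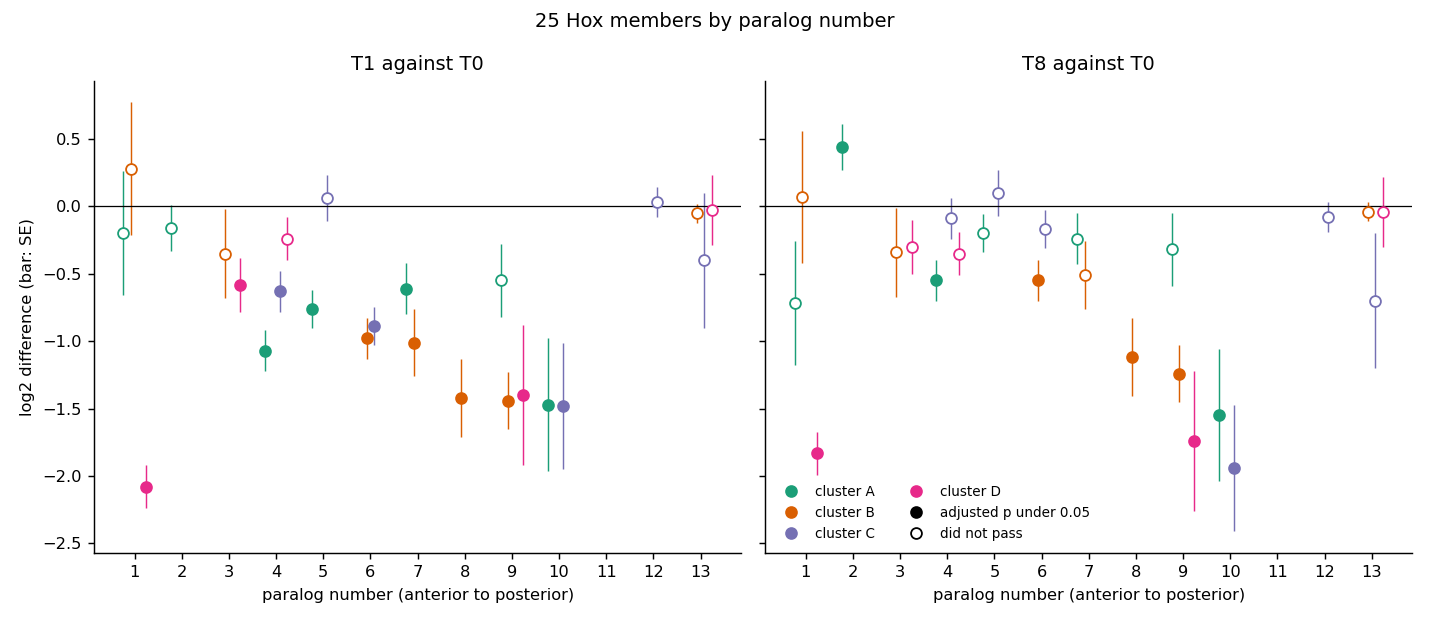
Log2 difference from T0 (± SE) of 25 Hox genes by paralog number, at T1 on the left and T8 on the right, coloured by cluster, with filled points for an adjusted p under 0.05 (Hoxd10, which 1 array of T4 sets apart, is left out). At T1 the filled points of numbers 3 to 7 lie between -0.58 and -1.07 and those of 8 to 10 between -1.40 and -1.48, with Hoxd1 apart at -2.08, and at T8 Hoxa4 and Hoxb6 are the only filled points from number 3 to number 7.

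Hoxd1 fell most at T1 among all Hox genes, although it has the lowest paralog number. It is known in the adult for a role in nociceptive neurons. It lay at 9.81, 9.58, 9.86 and 9.61 in T0, and at 7.72, 7.63, 7.79 and 7.40 in T1. All 16 injured arrays of the time course lay between 7.40 and 8.48. The fall was 2.08 ± 0.16, 1.56, 1.55 and 1.83 at T1, T2, T4 and T8 (limma, adjusted p 2.4e-10 to 5.4e-08), and both of its probes gave it (-1.96 and -2.20 at T1). At T1 it fell by 1.98 within session 2 (3 T1 arrays), and by 2.12 within session 1, which held 1 T1 array.

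Hoxb8 and Hoxb9 are neighbours in cluster B with thoracic and lower thoracic domains. Hoxb8 lay at 10.63, 10.30, 10.48 and 10.89 in T0, at 9.82, 9.08, 9.15 and 8.57 in T1 and at 9.36, 9.48, 9.19 and 9.80 in T8. It fell by 1.42 ± 0.29, 1.48, 1.14 and 1.12 at T1, T2, T4 and T8. Hoxb9 lay at 7.66, 7.39, 6.71 and 7.54 in T0, and between 5.55 and 6.32 on all 16 injured arrays. Its falls of 1.44 ± 0.21, 1.52, 1.19 and 1.24 were 2.27-fold to 2.86-fold, and neither gene overlapped T0 at any time. Hoxb6 fell by 0.98 ± 0.15 at T1 and 0.55 at T8.

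Hoxa2, of the hindbrain numbers, was the Hox gene that rose at T8, by 0.44 ± 0.17, a call lost without T0 replicate 1, 2 or 4 or T8 replicate 1 or 4 (adjusted p 0.054 to 0.095). Hoxa5, Hoxc4 and Hoxc6 fell at T1 and did not pass at T8. Hoxa5 lay at 12.19 to 12.58 in T0, 11.40 to 11.89 in T1, 11.56 to 11.81 in T2, 11.89 to 12.03 in T4 and 12.07 to 12.29 in T8. It differed from T0 by -0.76 ± 0.14 at T1 and by -0.20 at T8, which did not pass (adjusted p = 0.27). Its 2 probes differed there: the brighter one was still lower at T8 (-0.35, adjusted p = 0.044), and the dimmer one lay at -0.06 (0.82). The comparison of T8 with T1, which was added after these values were seen, tests the change itself. Of the 86 genes, 12 passed in it, 10 higher and 2 lower (9.87% of all gene names passed), and 5 of the 10 were Hox genes: Hoxc6 (+0.72 ± 0.14), Hoxa2 (+0.60), Hoxa5 (+0.56), Hoxc4 (+0.54) and Hoxa4 (+0.52). Hoxa4 stayed below T0 all the same, at 11.05 to 11.56 in T8 and 11.66 to 12.16 in T0. Calls lost without 1 array were those of Hoxa4 (T1 replicate 2 or 4, T8 replicate 2 or 4; adjusted p 0.084 to 0.13), Hoxc4 (T1 or T8 replicate 4; 0.070 and 0.083) and Hoxa2 (T8 replicate 1 or 4; 0.058 and 0.070). None of the genes numbered 8 to 10 passed between T1 and T8.

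Hoxa10, Hoxc10 and Hoxd9 differed widely among the T0 arrays, and were singled out after their values were seen. Hoxd9 lay at 8.68, 6.96, 5.56 and 8.67 in T0 replicates 1 to 4. Hoxa10 lay at 9.17, 8.15, 6.0 and 9.02, and Hoxc10 at 9.75, 8.57, 7.37 and 9.41. In all 3 genes replicate 1 was highest and replicate 3 lowest. These arrays shared a scan session and lay on different slides, and the part of the slide was not tested. Their SD among T0 arrays was 1.51, 1.46 and 1.06, beside a median of 0.25 over the 53 genes that passed this flag on all arrays, and no other of these went above 0.77. All 3 genes of T0 replicate 3 lay within the range of the injured arrays. The T1, T2, T4 and T8 differences were -1.40, -2.05, -1.38 and -1.74 for Hoxd9, -1.47, -1.69, -1.26 and -1.55 for Hoxa10, and -1.48, -2.0, -1.78 and -1.94 for Hoxc10, with SE 0.47 to 0.52. Without T0 replicate 3 the T1 differences became -2.04, -2.16 and -1.95 (adjusted p 0.0009, 6.4e-05 and 0.0013). Without T0 replicate 1 they became -1.0, -1.10 and -1.16 and did not pass (adjusted p 0.15, 0.085 and 0.065). Other calls were lost without a single array too: those of Hoxa10 at T4 without any of 15 arrays (adjusted p up to 0.18) and at T8 without T0 replicate 1 or 4 (0.069 and 0.059), and those of Hoxd9 at T4 without T0 replicate 1 or 4 or T4 replicate 1, 2 or 3 (0.069 to 0.17) and at T8 without T0 replicate 1 (0.053). At T1 all 3 were also lost without T1 replicate 4, and Hoxd9 and Hoxa10 without T0 replicate 4. Whether the T0 cords were cut at the same level was not tested.

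**Figure D4:**
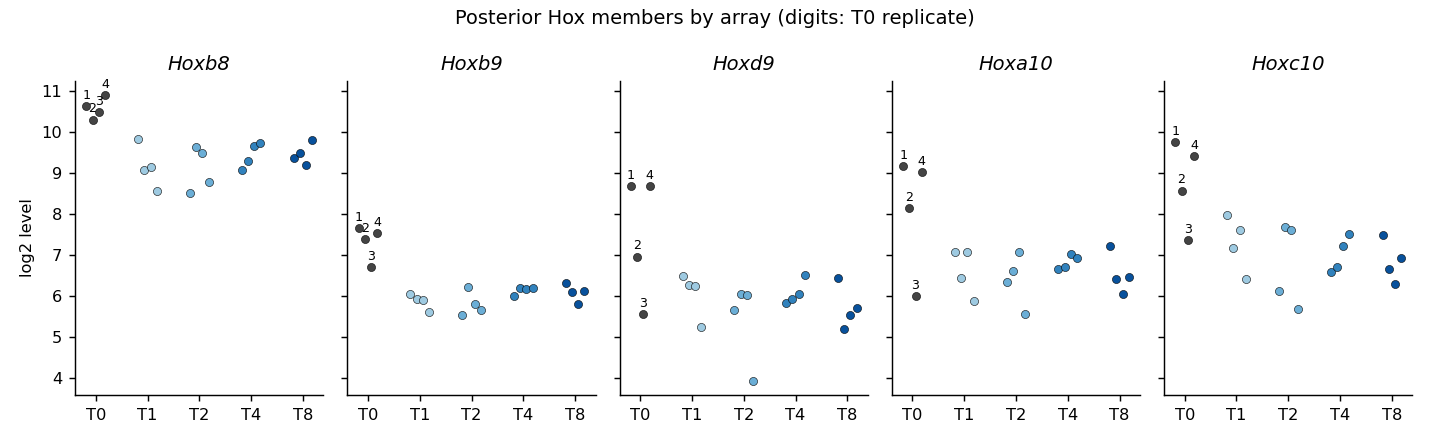
Log2 level of 5 posterior Hox genes by array in the time course, with the replicate number printed beside the T0 arrays. Hoxb8 and Hoxb9 of all 4 T0 arrays lie above the injured arrays, whereas Hoxd9, Hoxa10 and Hoxc10 of T0 replicate 3 (5.56, 6.0 and 7.37) lie among them.

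Hoxd10 shows what a single array can do to a mean. Its probe lay between 1.27 and 3.88 on the other arrays, never well above background, and at 13.76 on T4 replicate 3. The T4 mean was 4.41 ± 6.23 (SD, n = 4), and its difference from T0 did not pass (adjusted p = 0.29). It too was singled out after its value was seen.

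Of 16 Sox genes, 3, 2, 4 and 2 rose at T1, T2, T4 and T8, beside 19.1%, 17.7%, 17.5% and 18.2% of all gene names. At these times 4, 2, 3 and 3 fell, beside 25.1%, 22.2%, 21% and 21.5% of all gene names. Sox4, a group C factor of young neurons and of injury responses in many tissues, lay at 8.91, 9.30, 9.0 and 9.47 in T0. It lay at 10.51, 11.55, 10.66 and 11.69 in T1 and at 11.03, 10.55, 10.84 and 10.67 in T8. The rise was 1.93 ± 0.36, 1.86, 1.91 and 1.60 at T1, T2, T4 and T8 (SE, n = 4), a 3.04-fold to 3.81-fold higher level with no overlap (limma, adjusted p 9.8e-05 to 0.00078). Both probes rose, by 1.81 and 2.06 at T1, and the rise at T1 was 1.91 within session 2 and 1.55 within session 1, with its 1 T1 array. Microglia and macrophage markers rose beside it (6 of 7 at T1, by a median of 1.94 over the list), as did 3 of 3 proliferation markers (median 3.91 at T1 and 1.61 at T8) and 5 of 5 fibroblast markers (4.54 and 3.64). Their part in the rise of Sox4 was not tested.

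The other 2 genes of group C went other ways. Sox11, which accompanies axon regrowth in sensory neurons, rose at T1 alone: it lay at 4.32 to 5.13 in T0, 5.47 to 5.98 in T1, 4.19 to 4.90 in T2 and 3.75 to 4.71 in T8. Its rise at T1 was 0.90 ± 0.25 (adjusted p = 0.0049). Within session 2 this difference was 0.65 and did not pass (limma, adjusted p = 0.073). From T1 it fell by 1.02 to T2 and by 1.45 to T8 (adjusted p = 0.038 and 0.00031). The fall to T2 was lost without T1 replicate 1, 2 or 4 or T2 replicate 1, 3 or 4 (0.058 to 0.16). Sox12 fell at every time, from 7.77 to 8.07 in T0 to between 6.60 and 7.36 on all injured arrays, by 0.93 ± 0.14 at T1 and 0.94 at T8.

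In the model of all 28 arrays Sox6 rose at T4 alone, and Sox7, as the mean of its 2 probes, at T1 and T4. With scan session as a block on the time-course arrays, Sox6 passed at all 4 times (limma, adjusted p 0.00026 to 0.030). Its differences there were 0.27, 0.34, 0.50 and 0.52 at T1, T2, T4 and T8. Sox6, a group D factor of interneurons and glial precursors, lay at 6.50 to 6.83 in T0 and 6.96 to 7.41 in T4, a rise of 0.58 ± 0.23 (adjusted p = 0.046) that was lost without any 1 of 19 arrays (0.051 to 0.11), and its 2 probes differed (0.87 and 0.29). Sox7, an endothelial factor of group F, lay at 4.64 to 5.56 in T0 and 5.55 to 6.75 in T4, and rose by 1.09 ± 0.27. Its T1 rise of 0.68 was lost without T0 replicate 2, 3 or 4 or T1 replicate 1 or 3 (0.054 to 0.13). Its brighter probe, well above background on all 28 arrays, rose at all 4 times. The rises of this probe were 0.99, 1.15, 0.99 and 0.69 at T1, T2, T4 and T8 (limma, adjusted p 0.00036 to 0.023). The other probe was well above background on 3 arrays and passed at T4 alone (+1.18).

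Sox2 is a group B1 factor of neural stem cells that ependymal cells and astrocytes also express. It lay at 11.96 to 12.55 in T0, 12.39 to 12.50 in T1, 12.56 to 13.13 in T4 and 12.59 to 12.87 in T8. It differed by 0.24 at T1, which did not pass, and rose by 0.38 at T2, 0.71 ± 0.13 at T4 and 0.49 at T8. The T2 call was lost without T0 replicate 1 or 3 or T2 replicate 1 (adjusted p 0.091 to 0.10). Within session 2 its T8 difference was 0.32 (adjusted p = 0.093), and within session 1 it was 0.66 (0.012). Pax6, of radial glia and the dorsal progenitor zone, lay at 9.38 to 9.76 in T0 and 9.11 to 9.43 in T1. At T4 and T8 it lay at 10.16 to 10.48 and 10.00 to 10.48, above every T0 array, with rises of 0.65 ± 0.21 and 0.67. From T1 to T8 it rose by 1.03 (adjusted p = 0.0014). The T8 difference of Pax6 from T0 was 0.90 within session 2 and 0.44 within session 1.

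Sox9 and Nkx6-1 dipped at T1. Sox9, the astrocyte and ependymal factor of group E, lay at 7.10 to 7.46 in T0, 6.47 to 6.95 in T1, 6.86 to 7.58 in T2 and 7.21 to 7.86 in T8. It fell by 0.62 ± 0.15 at T1 and had risen by 0.65 at T2 and 0.93 at T8 from T1 (adjusted p = 0.030 and 0.00018). The T2 call was lost without T1 replicate 2 or 4 or T2 replicate 1, 2 or 3 (0.074 to 0.12). Nkx6-1, which sets the ventral progenitor domains, lay at 10.32 to 10.55 in T0 and 9.68 to 9.86 in T1, a fall of 0.66 ± 0.12. It rose from T1 by 0.65 at T2 and 0.98 at T8 (adjusted p = 0.0044 and 4.5e-06). At T8 it stood 0.31 above T0, a call lost without T0 replicate 2, 3 or 4 or T8 replicate 1, 2 or 3 (0.058 to 0.11). Of the markers of ependymal cells, 3 of 5 fell at T1 (median -1.16), while none fell and 1 rose at T8 (median 0.18). Of 6 astrocyte markers, 3 fell at T1 and Gfap rose by 0.86 ± 0.29. The mean of the ependymal list was 7.99 to 8.34 in T0, 7.09 to 7.57 in T1 and 8.25 to 8.71 in T8, and its part in these dips was not tested.

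The oligodendrocyte factors did not move as one. Olig1, which maturing oligodendrocytes need for myelin genes, lay at 15.27 to 15.95 in T0 and 14.50 to 14.98 on all 16 injured arrays. It fell by 0.91 ± 0.17, 0.96, 0.91 and 1.08 at T1, T2, T4 and T8. Olig2, the factor of the whole lineage, lay at 7.31 to 7.89 in T0, and its differences of -0.30, -0.56, -0.21 and -0.23 did not pass (adjusted p 0.099 to 0.59). Olig3, of dorsal progenitors, fell by 0.52 to 0.79. The T1 call was lost without T0 replicate 1 or T1 replicate 1 (0.058 to 0.086). Sox10, required in oligodendrocytes and Schwann cells, fell by 0.36 ± 0.10 at T1, 0.33 at T4 and 0.40 at T8, and differed by -0.17 at T2 without passing. The T4 call was lost without T0 replicate 3 (0.054). Nkx2-2 differed by 0.16 or less from T0 at every time and passed at none, and Nkx6-2, a gene of myelinating oligodendrocytes, fell by 0.79 ± 0.12 at T1, 0.36 at T4 and 0.64 at T8. Its T4 call was lost without T0 or T4 replicate 3 (0.065 to 0.084), and its 2 probes gave -0.21 and -0.50 at T4 (0.49 and 0.0034). Of 6 oligodendrocyte markers 4 fell at T1 and 5 at T8 (medians -0.59 and -0.75), both measured precursor markers rose, and 4 of 5 Schwann cell markers rose (median 4.59 at T8). Pax4, a pancreatic endocrine factor, fell by 1.64 ± 0.27 at T1 only (6.14 to 6.69 in T0, 4.05 to 5.56 in T1) and was 1.35 higher at T2 than at T1. That last call was lost without T1 replicate 1 (adjusted p = 0.052).

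Between T1 and T2, 4 of 86 genes passed (1.48% of all gene names): Pax4, Nkx6-1 and Sox9 rose and Sox11 fell. Between T2 and T4, and between T4 and T8, 0 passed with limma (0.0761% and 0.0902% of all gene names), with 6 and 3 genes at an unadjusted p under 0.05. Chance alone puts about 1 in 20 genes under that unadjusted threshold. From T1 to T8 the 12 genes that passed were, beside the 5 Hox genes, Pax4 (+1.43), Pax6 (+1.03), Nkx6-1 (+0.98), Sox9 (+0.93) and Ascl3 (+0.82), and Sox11 (-1.45) and Lhx2 (-1.27).

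Of 52 other factors of these pathways on 3 lists, 10 rose and 19 fell at T1, beside 19.1% and 25.1% of all gene names. At T8, 16 rose and 14 fell, beside 18.2% and 21.5% of all gene names. The same shares stand beside the counts of each list. The 10 Hox cofactors and Cdx genes (Pbx, Meis and relatives) had 2 rises and 3 falls at T1 and 1 of each at T8. Meis2, a Hox partner, fell by 1.11 ± 0.20 at T1 and 0.75 at T8. Of 27 other patterning factors, 13 fell and 2 rose at T1 and 11 fell and 5 rose at T8. Onecut1, of motor neurons and interneurons, fell furthest (2.12 ± 0.57 and 2.86), and En1, of V1 inhibitory interneurons, fell by 0.82 and 0.44. Of 15 other glial and Schwann cell factors, 6 rose and 3 fell at T1 and 10 rose and 2 fell at T8. Egr2, the myelination factor of Schwann cells, rose by 3.68 ± 0.29 at T1 and 4.59 at T8, while Hes5 fell by 1.19 and 1.42.

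Fewer of these genes passed in the transplanted groups than after the contusion, as was also so for all gene names. In T1_NPC against T1, 11 of 86 passed (12.8%; 11.9% of all gene names did), 9 lower and 2 higher, and in T2_NPC against T2, 6 of 86 passed (6.98%; 9.47% of all gene names did), 4 higher and 2 lower. The split in T1_NPC turned with the scaling: with the 75th percentile of every array set equal in place of quantile normalization, 13 were higher and 6 lower, and the median of all gene names lay at 0.11 instead of -0.01. That scaling also moved the median of all gene names at T1 against T0 from -0.10 to -0.28, where 39 genes of the set fell and 3 rose. The shares of all gene names that passed under that scaling are not reported here. All arrays of T1_NPC lay on 1 slide and all of T2_NPC on another, both scanned in session 3, which held no other group. Transplantation and session cannot be told apart in these comparisons. The transplanted arrays were also dimmer. Median spot intensity was 105 to 127 in T1_NPC and 177 to 192 in T1, and 120 to 136 in T2_NPC and 146 to 182 in T2. In T1_NPC 74.5% to 76.4% of spots were well above background, and in T1 79.0% to 81.9%. The part of signal strength in the calls was not tested.

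**Figure D5:**
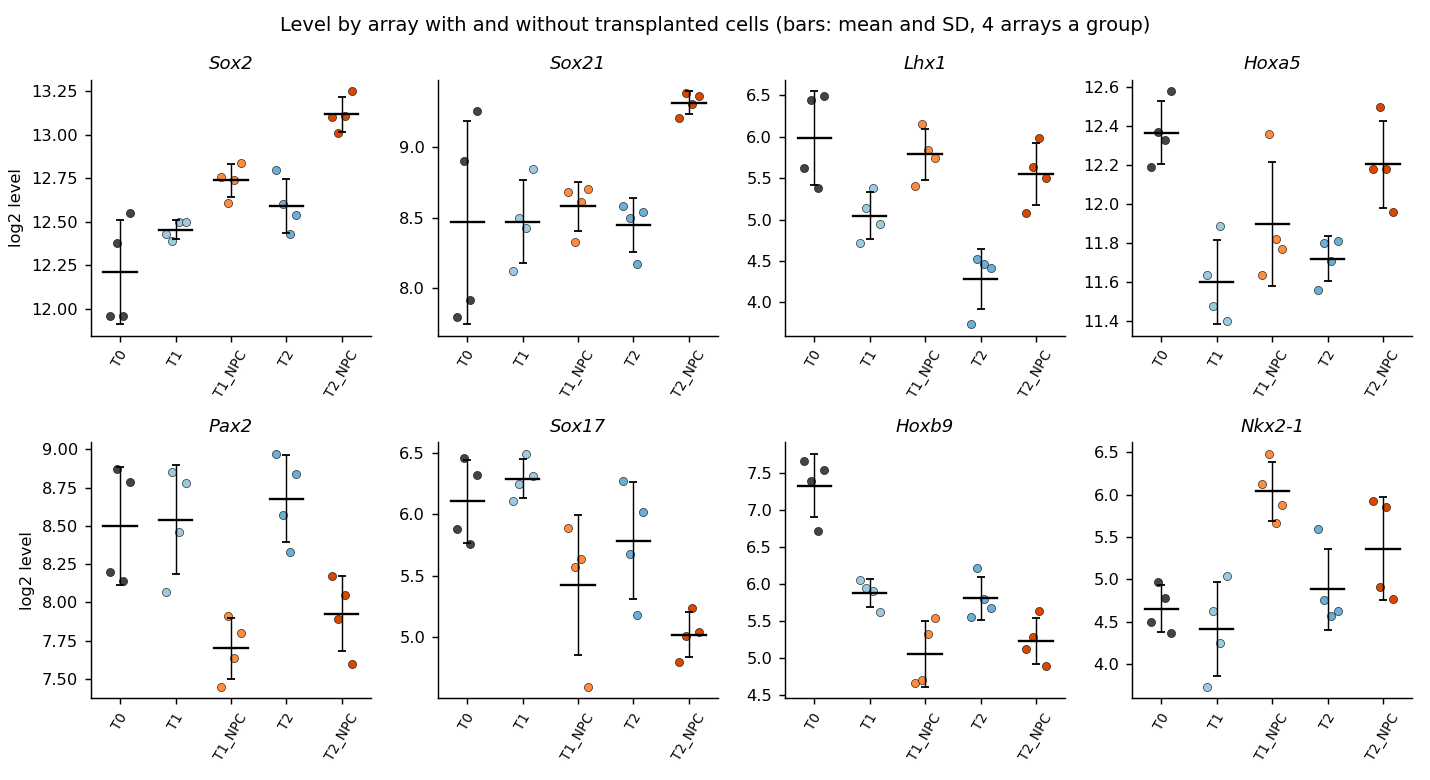
Log2 level by array of 8 genes in T0, T1, T1_NPC, T2 and T2_NPC, with the mean and SD of 4 arrays (each panel has its own axis, which does not start at 0). Sox2, Sox21 and Lhx1 of T2_NPC lie above every T2 array, and Pax2 of T1_NPC and of T2_NPC lies below every array of its control group.

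In T2_NPC the 4 higher genes were Lhx1, Sox21, Sox2 and Hoxa5. Sox2 lay at 13.10, 13.01, 13.11 and 13.25 in T2_NPC and at 12.80, 12.60, 12.43 and 12.54 in T2, a rise of 0.53 ± 0.13 (adjusted p = 0.014). Sox21, of group B2, lay at 9.20 to 9.38 in T2_NPC and 8.17 to 8.58 in T2. It rose by 0.86 ± 0.26 (limma, adjusted p = 0.041), a call lost without any 1 of the 8 arrays (0.055 to 0.12). Lhx1 lay at 5.08, 5.64, 5.98 and 5.50 in T2_NPC, beside 3.74 to 4.52 in T2 and 5.38 to 6.49 in T0. It rose by 1.26 ± 0.31 (adjusted p = 0.012), a call lost without T2 replicate 1 (0.052). Only 2 of the 4 T2 arrays were well above background for Lhx1, and all 4 T2_NPC arrays were. Hoxa5 rose by 0.48 ± 0.14 (adjusted p = 0.031), a call lost without T2 replicate 1 or 3 or T2_NPC replicate 1, 2 or 3 (0.057 to 0.12). The tissue labels of these groups differ (T7-T10 and T6-T10), which cannot be told apart from transplantation either.

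Pax2 and Sox17 were lower in both transplanted groups. Pax2 lay at 7.45, 7.91, 7.64 and 7.80 in T1_NPC and 8.07, 8.85, 8.46 and 8.78 in T1 (-0.84 ± 0.21, adjusted p = 0.012). It lay at 7.60 to 8.17 in T2_NPC and 8.33 to 8.97 in T2 (-0.75 ± 0.21, adjusted p = 0.028), a call lost without T2 replicate 1 or 4 or T2_NPC replicate 2 or 4 (0.061 to 0.091). Sox17, an endothelial factor of group F, lay at 4.60 to 5.89 in T1_NPC and 6.11 to 6.49 in T1, and at 4.8 to 5.24 in T2_NPC and 5.18 to 6.27 in T2. It differed by -0.86 ± 0.22 and -0.76 (adjusted p = 0.014 and 0.033). Its 2 probes were not equal: the brighter one, well above background on all arrays, differed by -0.38 and -0.36 and did not pass alone (0.094 and 0.12), and the dimmer one by -1.35 and -1.17. The T1_NPC call was lost without T1_NPC replicate 4 (0.051), and the T2_NPC call without T2 replicate 1, 2 or 4 or T2_NPC replicate 1, 2 or 4 (0.053 to 0.12). Of 5 endothelial markers, 1 rose in each transplanted group and none fell (medians 0.11 and -0.01).

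In T1_NPC, Hoxb9 lay at 4.66, 4.71, 5.32 and 5.54, below T1 (5.62 to 6.06), by 0.83 ± 0.21 (adjusted p = 0.013). Nkx2-1, a forebrain, lung and thyroid factor, lay at 5.67 to 6.48 in T1_NPC and 3.73 to 5.04 in T1, a rise of 1.63 ± 0.31 (adjusted p = 0.0015). Pax4 was 0.90 lower, with overlapping arrays, and this call was lost without T1 replicate 2 or 4 or T1_NPC replicate 1 or 2 (0.058 to 0.13). Nkx2-5, a heart factor, was well above background on 3 of 4 T1 arrays and on no T1_NPC array, which makes T1 at least 1.25-fold higher. Of the 11 genes that passed, 4 were above background in 1 of the 2 groups only, and Lhx6 was so in neither. Of the genes of neural progenitors and oligodendrocytes named above, Sox9, Sox10, Olig1, Olig2, Nkx2-2 and Pax6 did not pass in T1_NPC or in T2_NPC. The difference between the 2 transplantation effects was tested directly, and 0 of 86 genes passed with limma (0.299% of all gene names), 7 of them at an unadjusted p under 0.05. About 1 in 20 genes falls under that unadjusted threshold by chance. No neuronal, astrocyte or proliferation marker passed in either transplanted group, while 2 of 5 ependymal markers were lower in T1_NPC (median of the list -0.68) and 2 of 6 oligodendrocyte markers were higher in T2_NPC.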

How the data were processed

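RNA of 28 spinal cord samples (4 in each of 7 groups) was hybridised to Whole Rat Genome arrays, and the authors deposited scanner outputs made with Agilent Feature Extraction 10.7.1.1, which hold an intensity per spot. They also deposited a value table of log2 values, quantile normalized between arrays. The values analysed are those of this table. Its rows were named through the 8 scanner outputs that carry gene names, control spots were left out, and 43379 spots were averaged to 41012 probes and these to 35469 gene names, and dim probes were kept. Of the 86 genes, 56 had an accession with a current RefSeq symbol, and the others keep the name of the annotation. Flags for background, slides (7) and scan sessions (3) came from the scanner output whose rank order matched each column.

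All 28 arrays entered 1 linear model of the 7 group means in limma 3.58.1 in R 4.3.3, with empirical Bayes moderation, two-sided tests and Benjamini-Hochberg adjustment over all 35469 gene names. The fit was also tested on simulated data. Where every array of a group lay below background, the fold is a bound: the mean of the other group against, per array, the higher of the gene's own value and the lowest value of a probe well above background. Named were up to 8 rises and 8 falls against T0, and up to 4 each in other comparisons, that passed without overlap of the groups and were above background on every array of the higher group, and 11 genes fixed by name. The same outputs rescaled, corrected by normexp (on the median signal, since 20 outputs lack the mean) or under their deposited samples, blocks, filters and the loss of each array served as alternatives. The genes, lists and tests were chosen with earlier results of these data known. The comparison of T8 with T1 and the fits within each scan session were added after the data were seen. Other genes of the set given with values (such as Hoxa10, Hoxb6, Hoxc4, Hoxc6, Hoxc10, Hoxd9, Hoxd10, Lhx5, Nkx2-5, Nkx6-2, Olig3, Sox7, Sox13 and Ascl3) were chosen after their values were seen. Some genes of the set are counted but not reported here by name.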

Additional observations from a re-analysis of the deposited data

Results flagged for a closer look

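Of 238 groups of 4 arrays of the named genes, 11 held an array that stood apart from the other 3 by Dixon's test, of which chance flags about 1 in 20 groups. Hoxa2 lay at 9.55 on T2_NPC replicate 2 (others 8.82 to 8.94), and Hoxa4 at 11.32 on T4 replicate 4 (others 11.07 to 11.08). Hoxb9 lay at 5.99 on T4 replicate 1 (others 6.18 to 6.20). T4 replicate 4 also stood apart in Isl1, at 6.26 (others 5.28 to 5.43), in Sox21, at 8.25 (others 9.16 to 9.32), and in Sox10, at 14.37 (others 14.32 to 14.33). Lhx1 lay at 3.74 on T2 replicate 1 (others 4.42 to 4.52) and Lhx2 at 3.79 on T2 replicate 2 (others 4.54 to 4.67). Neurod1 lay at 2.77 on T2 replicate 1 (others 3.82 to 3.87) and at 4.57 on T0 replicate 2 (others 5.34 to 5.47), and Neurod6 at 7.67 on the same T0 array (others 8.07 to 8.14).

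The effect of the contusion differed between T1 and T2 in 4 named genes, tested directly with limma: Nkx6-1 by 0.65 (adjusted p = 0.0044), Pax4 by 1.35 (0.011), Sox9 by 0.65 (0.030) and Sox11 by -1.02 (0.038). Between T1 and T8 it differed in Hoxa2 by 0.60 (0.021), Hoxa4 by 0.52 (0.030), Hoxa5 by 0.56 (0.0093), Nkx6-1 by 0.98 (4.5e-06), Pax4 by 1.43 (0.00096), Pax6 by 1.03 (0.0014), Sox9 by 0.93 (0.00018), Lhx2 by -1.27 (0.0057) and Sox11 by -1.45 (0.00031).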

How the results depend on the processing

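Outside the loss of single arrays, the alternatives gave 1708 values for 104 results of named genes: 1415 kept direction and call, 283 kept the direction alone and 10 changed sign. With each array left out in turn, 2798 of 2912 kept both and none changed sign. All 10 sign changes came from one alternative, the scanner outputs read under the samples they were deposited with: Hoxb9 (T2 against T0) 0.08, Sox12 (T2) 0.02, Nkx6-1 (T8) -0.04, Pax6 (T4 and T8) -0.45 and -0.09, Sox6 (T4) -0.15, and in T1_NPC against T1 Nkx2-1 -0.07, Pax2 0.53, Pax4 0.64 and Sox17 0.05. Under those samples the number of genes called was 0 at T1, T2, T4 and T8, T2 against T1, T8 against T1, T1_NPC and T2_NPC.

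Counts of genes called moved as follows. All such counts in this section are of the 86 genes, and the shares of all gene names beside them are not reported here. A change of at least 2-fold left 16 at each of T1, T2 and T4, 18 at T8, 2 in T2 against T1, 4 in T8 against T1, 6 in T1_NPC and 1 in T2_NPC. The undisputed arrays (1 each in T1 and T4) gave 18 at T1, 16 at T2, 11 at T4, 0 in T2 against T1, 5 in T8 against T1 and 11 in T2_NPC. Session 1 alone (1 array each of T1 and T4) gave 22 at T1, 21 at T2, 13 at T4, 0 in T2 against T1 and 1 in T8 against T1. Session 2 alone gave 1 in T2 against T1, and session as a block 1 in T4 against T2. A fit of only the groups compared gave 0 in T2 against T1, 6 in T1_NPC and 1 in the difference of the transplantation effects. The 75th percentile gave 19 in T1_NPC and 6 in that difference, normexp 3 in T1_NPC, quantile normalized outputs 1 in that difference, and slide as a random block 7 in T1_NPC and 3 in T2_NPC. The cause of these shifts was not tested.

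With each array left out in turn the counts were 30 to 39 at T1, 30 to 35 at T2, 25 to 35 at T4, 27 to 31 at T8, 2 to 5 in T2 against T1, 0 to 0 in T4 against T2 and in T8 against T4, 9 to 13 in T8 against T1, 8 to 12 in T1_NPC, 1 to 8 in T2_NPC and 0 to 1 in the difference. The replicate number as a block gave 36, 33, 31 and 29 at T1, T2, T4 and T8, and 101 of 104 named results kept their call. The numbers did not pair the arrays: deviations of arrays with the same number correlated at -0.34 to 0.30, and over 0.1 in 19 of 84 pairs. Dim genes such as Neurod1, Lhx4 and Lhx5 give only bounds where no array was above background.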
